A study of Drosophila melanogaster with 44 samples.

Results

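The aminoacyl-tRNA synthetase genes of Drosophila melanogaster were followed through the mRNA-seq part of a study of Mod(mdg4), a BTB-domain insulator protein made as many splice variants from a single locus. Members were taken by FlyBase symbol (1 or 2 three-letter amino acid codes followed by RS or RS-m, plus alpha-PheRS and beta-PheRS), which gave 35 of the 17807 genes listed in each table. Of these, 20 carry no suffix and are called cytoplasmic here, and 15 carry the suffix -m and are called mitochondrial. Poly(A)+ RNA had been sequenced from 3 whole ovary samples of Mod(mdg4)-N mutant flies, 3 of wild-type (WT) flies, and 2 each of ovarian somatic cells (OSC) given siRNA against variant N (Mod(mdg4)-N KD), against all variants (Mod(mdg4)-All KD) or against EGFP (EGFP KD). OSC are a cultured line derived from follicle cells. They lack the germ cells that a whole ovary holds. The mutant flies came from a single line and carried the same allele, RN1-2, on both chromosomes, a Cas9-induced frameshift in the exon that only variant N uses. They share the y1 w1118 background of the WT flies, and the age of the flies is not given in the sources used here. Every OSC library, the EGFP KD control included, came from siRNA-transfected cells. Nothing in the labels says whether libraries of a group came from separate dissections or cultures, so p-values measure the spread between these libraries, which may be technical.

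Each synthetase joins an amino acid to its cognate tRNA, the step at which the genetic code is read into amino acids. Cytosol and mitochondria translate separately, and most amino acids are charged in mitochondria by a distinct enzyme that is encoded in the nucleus and imported. The enzymes fall into class I and class II by the fold of the catalytic domain. In animals several cytoplasmic synthetases are held in a multisynthetase complex by the non-catalytic AIMP proteins. Some genes without a -m partner serve both compartments, as those for glycyl- and lysyl-tRNA synthetase do in humans. An ovary that fills eggs with yolk, ribosomes and mRNA is a tissue of heavy translation.

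The libraries held between 13728168 and 20244538 counted read pairs. The transcript of mod(mdg4), summed over all its variants, stood at 62.2 and 73.0 TPM in Mod(mdg4)-All KD and at 478 and 448 TPM in EGFP KD, a log2 fold change of -2.47 (edgeR's quasi-likelihood test with Benjamini-Hochberg adjustment, adjusted p = 0.000366). The gene-level value does not separate variants, so that it checks neither the mutant nor the Mod(mdg4)-N KD label, and directions between these groups rest on the labels. It was 359, 520 and 625 TPM in mutant ovaries against 528, 627 and 792 TPM in WT ovaries, and 434 and 403 TPM in Mod(mdg4)-N KD. Germline markers (6 genes) summed to between 1319 and 1388 TPM in mutant ovaries and between 1074 and 1272 TPM in WT ovaries, against between 8.38 and 13.95 TPM in OSC, whereas 3 fat body markers summed to at most 0.55 TPM in any library. Eggshell genes of late follicle cells (5 genes) summed to 26554, 27238 and 24085 TPM in mutant ovaries, all above the 5470, 13835 and 16372 TPM of WT ovaries. The eggshell sum thus moved with genotype, but not every gene in it did. Of the 5 genes, 4 had a positive log2 fold change and 1 a negative one, and 2 were higher without overlap of the groups. In whole ovaries fewer cells of a type and less RNA per cell cannot be told apart.

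Every synthetase gene was expressed in every library, and the transcripts for cytoplasmic enzymes were the abundant ones. On the TPM scale (RSEM's share of transcripts, corrected for gene length), the summed level of the 20 cytoplasmic genes was 2699, 2699 and 2926 in mutant ovaries and 2144, 2216 and 2238 in WT ovaries. The 15 mitochondrial genes summed to 288, 317 and 344 TPM in mutant ovaries and to 292, 290 and 325 TPM in WT ovaries. In OSC, the cytoplasmic sum was 2638 and 2639 TPM with Mod(mdg4)-N KD, 2532 and 2369 TPM with Mod(mdg4)-All KD and 2705 and 2616 TPM with EGFP KD. The cytoplasmic sums of mutant ovaries lay above those of WT ovaries without overlap, whereas the mitochondrial sums overlapped. The ratio of the summed TPM of the cytoplasmic to that of the mitochondrial genes was 9.37, 8.52 and 8.50 in mutant ovaries against 7.35, 7.66 and 6.88 in WT ovaries, again without overlap. Among genes over 1 TPM, the median cytoplasmic synthetase stood between the 83.0 and 85.7 percentile in all 5 groups and the median mitochondrial synthetase between the 28.6 and 38.8 percentile.

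Within each class the levels spread over several fold. ThrRS (threonyl-tRNA synthetase, FBgn0027081; 2L, 12103751 to 12107170) had the highest mean over the 12 libraries, with 194, 204 and 214 TPM in mutant ovaries, 157, 168 and 193 TPM in WT ovaries, 295 and 305 TPM in Mod(mdg4)-N KD, 287 and 252 TPM in Mod(mdg4)-All KD and 295 and 287 TPM in EGFP KD. It was thus higher in every OSC library than in any ovary library, and ranked highest in the 3 OSC groups only. In both ovary groups the highest member was LysRS (lysyl-tRNA synthetase), chosen for mention after its values were seen, with 209, 226 and 253 TPM in mutant ovaries and 203, 207 and 202 TPM in WT ovaries. MetRS (methionyl-tRNA synthetase, FBgn0034401; 2R, 18846858 to 18850599), the cytoplasmic gene with the lowest mean over the 12 libraries, had 47.6, 56.2 and 63.8 TPM in mutant ovaries, 50.4, 57.7 and 66.2 TPM in WT ovaries, 51.9 and 48.6 TPM in Mod(mdg4)-N KD, 45.5 and 45.9 TPM in Mod(mdg4)-All KD and 49.9 and 50.8 TPM in EGFP KD. In WT ovaries the group means of ValRS (51.2 TPM) and CysRS (57.8 TPM) lay below that of MetRS (58.1 TPM).

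AspRS-m (mitochondrial aspartyl-tRNA synthetase, FBgn0051739; 2L, 16827078 to 16832093) was the highest mitochondrial gene, with 48.4, 50.9 and 57.2 TPM in mutant ovaries, 49.2, 50.5 and 55.1 TPM in WT ovaries, 58.0 and 57.7 TPM in Mod(mdg4)-N KD, 59.5 and 53.1 TPM in Mod(mdg4)-All KD and 63.0 and 50.0 TPM in EGFP KD. It was the 1 mitochondrial gene whose mean over the 12 libraries (54.4 TPM) exceeded that of a cytoplasmic one (MetRS, 52.9 TPM), and the ranges of both overlapped. ValRS-m (mitochondrial valyl-tRNA synthetase, FBgn0035942; 3L, 8961274 to 8964769), the member with the lowest mean over the 12 libraries, had 5.09, 7.25 and 8.21 TPM in mutant ovaries, 6.41, 7.44 and 10.2 TPM in WT ovaries, 7.16 and 6.83 TPM in Mod(mdg4)-N KD, 6.55 and 7.07 TPM in Mod(mdg4)-All KD and 7.90 and 8.93 TPM in EGFP KD. In the ovary groups GluRS-m was lower still, with means of 6.22 TPM in mutant and 7.55 TPM in WT ovaries, against 6.85 and 8.01 TPM for ValRS-m, within the spread of the libraries. Neighbours in the order of levels were often not separated. In mutant ovaries 14 of 19 neighbouring cytoplasmic pairs and 10 of 14 mitochondrial pairs overlapped, and in WT ovaries 10 of 19 and 10 of 14 did.

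**Figure D1:**
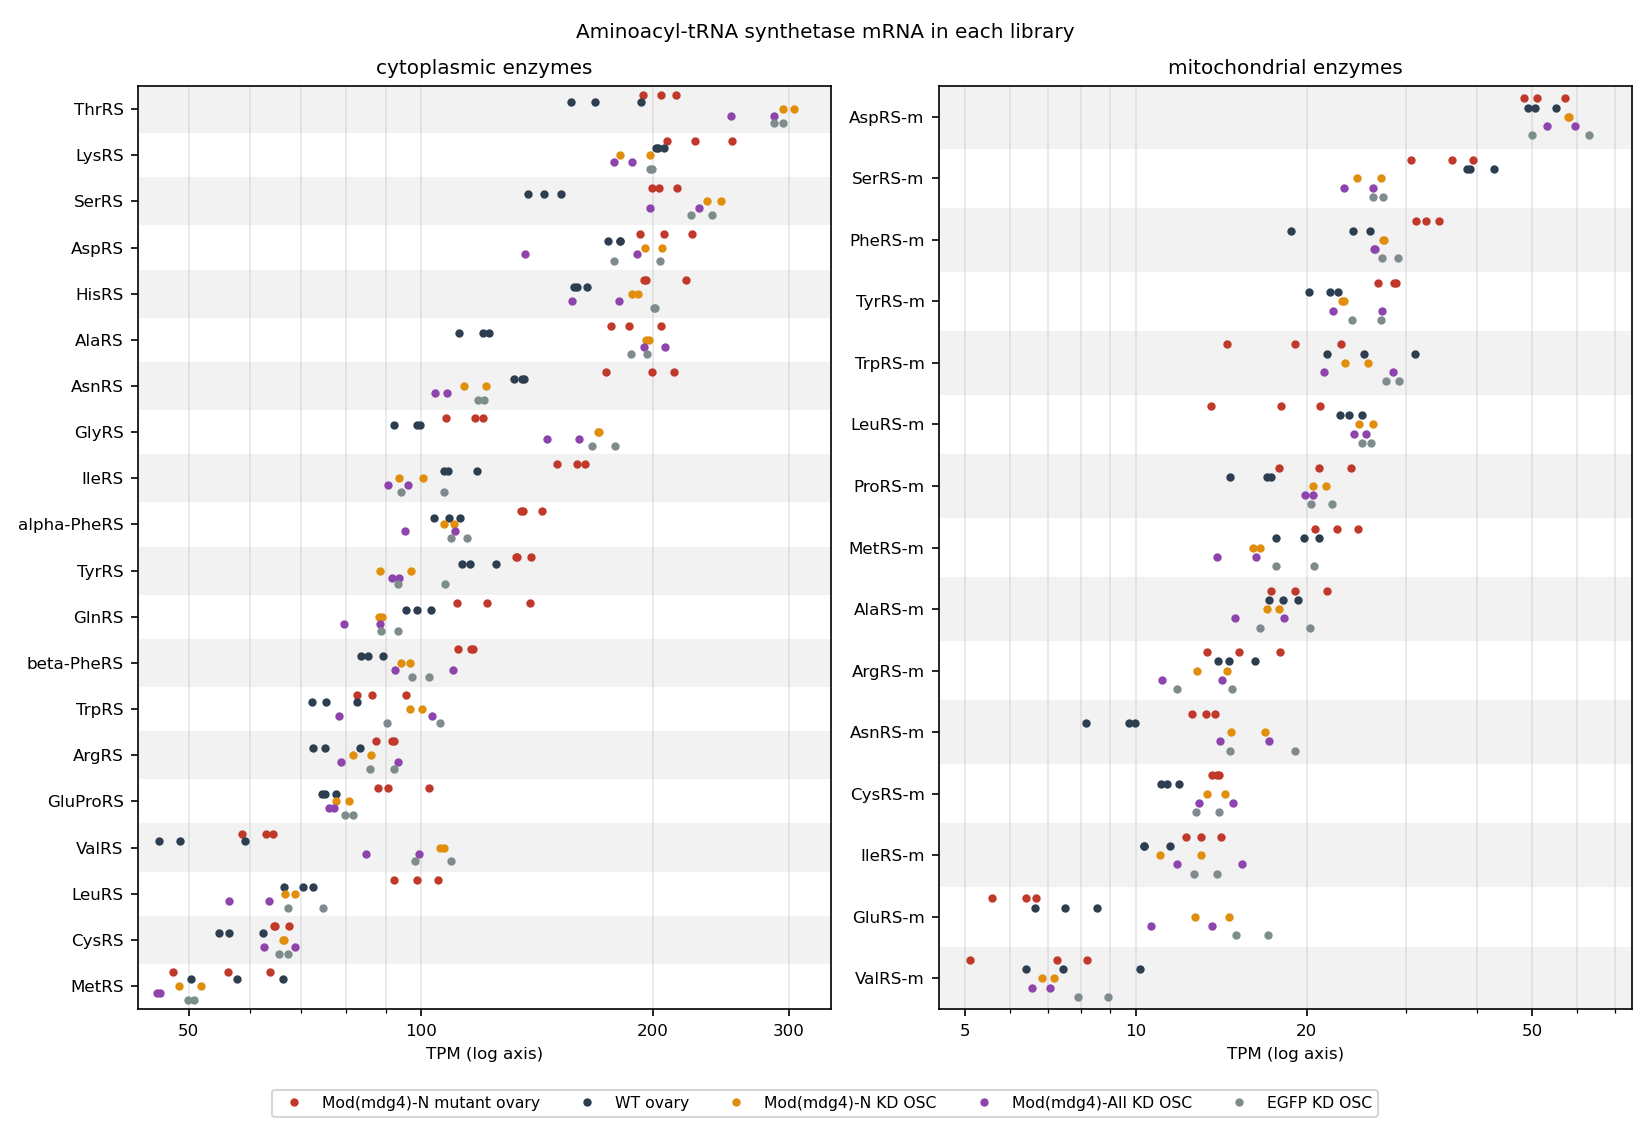
TPM of each synthetase gene in each of the 12 libraries (log axes, with a different range in each panel), cytoplasmic enzymes at left and mitochondrial enzymes at right, ordered by their mean over all libraries; each point is a library, coloured by group. The cytoplasmic genes ran from MetRS to ThrRS (means of 52.9 and 238 TPM) and the mitochondrial ones from ValRS-m to AspRS-m (means of 7.42 and 54.4 TPM).

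For 15 amino acids a cytoplasmic and a mitochondrial gene could be set side by side, as 16 pairs, since the alpha and beta subunits of cytoplasmic phenylalanyl-tRNA synthetase both pair with PheRS-m. GluProRS, which joins glutamyl- and prolyl-tRNA synthetase in a single protein, was paired with GluRS-m and with ProRS-m, so that these pairs share a gene. The cytoplasmic transcript was the higher one in all 12 libraries for all 16 pairs. Over the 12 libraries, the log2 difference in TPM (pseudocount 0.1 TPM) averaged 3.34 for asparagine, 3.34 for valine and 3.24 for alanine, the widest, and 1.48 for methionine, 1.70 for leucine and 1.79 for aspartate, the narrowest. The span therefore ran between 2.79-fold and 10.2-fold.

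The wide pairs were wide in different places. For asparagine the log2 difference in TPM was 3.94, 3.70 and 3.98 in mutant ovaries and 3.75, 4.00 and 3.79 in WT ovaries, against 2.84 and 2.94 in Mod(mdg4)-N KD, 2.88 and 2.64 in Mod(mdg4)-All KD and 3.03 and 2.63 in EGFP KD. For valine it was 3.60, 3.00 and 2.95 in mutant ovaries, 2.82, 2.69 and 2.53 in WT ovaries, 3.87 and 3.95 in Mod(mdg4)-N KD, 3.90 and 3.57 in Mod(mdg4)-All KD and 3.78 and 3.45 in EGFP KD. The asparagine pair was thus further apart in every ovary than in any OSC library, whereas the valine pair was further apart in OSC with the exception of mutant replicate 1. For alanine the log2 difference was 3.34, 3.28 and 3.23 in mutant ovaries, 2.70, 2.75 and 2.63 in WT ovaries, 3.51 and 3.46 in Mod(mdg4)-N KD, 3.78 and 3.41 in Mod(mdg4)-All KD and 3.56 and 3.20 in EGFP KD. Here WT ovaries were the low group, below every other library.

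Among the narrow pairs, leucine stood out for the mutant ovaries. Its log2 difference in TPM was 2.86, 2.35 and 2.31 in mutant ovaries and 1.53, 1.60 and 1.48 in WT ovaries, with 1.42 and 1.38 in Mod(mdg4)-N KD, 1.39 and 1.15 in Mod(mdg4)-All KD and 1.52 and 1.42 in EGFP KD. The mean of mutant ovaries lay 0.96 above that of WT ovaries, the largest such shift of the 16 pairs. For aspartate the values were 1.99, 2.02 and 1.97 in mutant ovaries, 1.83, 1.84 and 1.72 in WT ovaries, 1.75 and 1.83 in Mod(mdg4)-N KD, 1.68 and 1.36 in Mod(mdg4)-All KD and 1.69 and 1.83 in EGFP KD. For methionine they were 1.20, 1.19 and 1.49 in mutant ovaries, 1.51, 1.45 and 1.74 in WT ovaries, 1.65 and 1.59 in Mod(mdg4)-N KD, 1.70 and 1.49 in Mod(mdg4)-All KD and 1.49 and 1.30 in EGFP KD. In all, 7 pairs (Leu, Ser, Trp, Ala, Glu, Val and Asp) had a wider difference in every mutant ovary than in any WT ovary, 1 (Tyr) had a narrower one, and 8 overlapped. No test was run on these differences, which describe pairs of genes within a library.

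**Figure D2:**
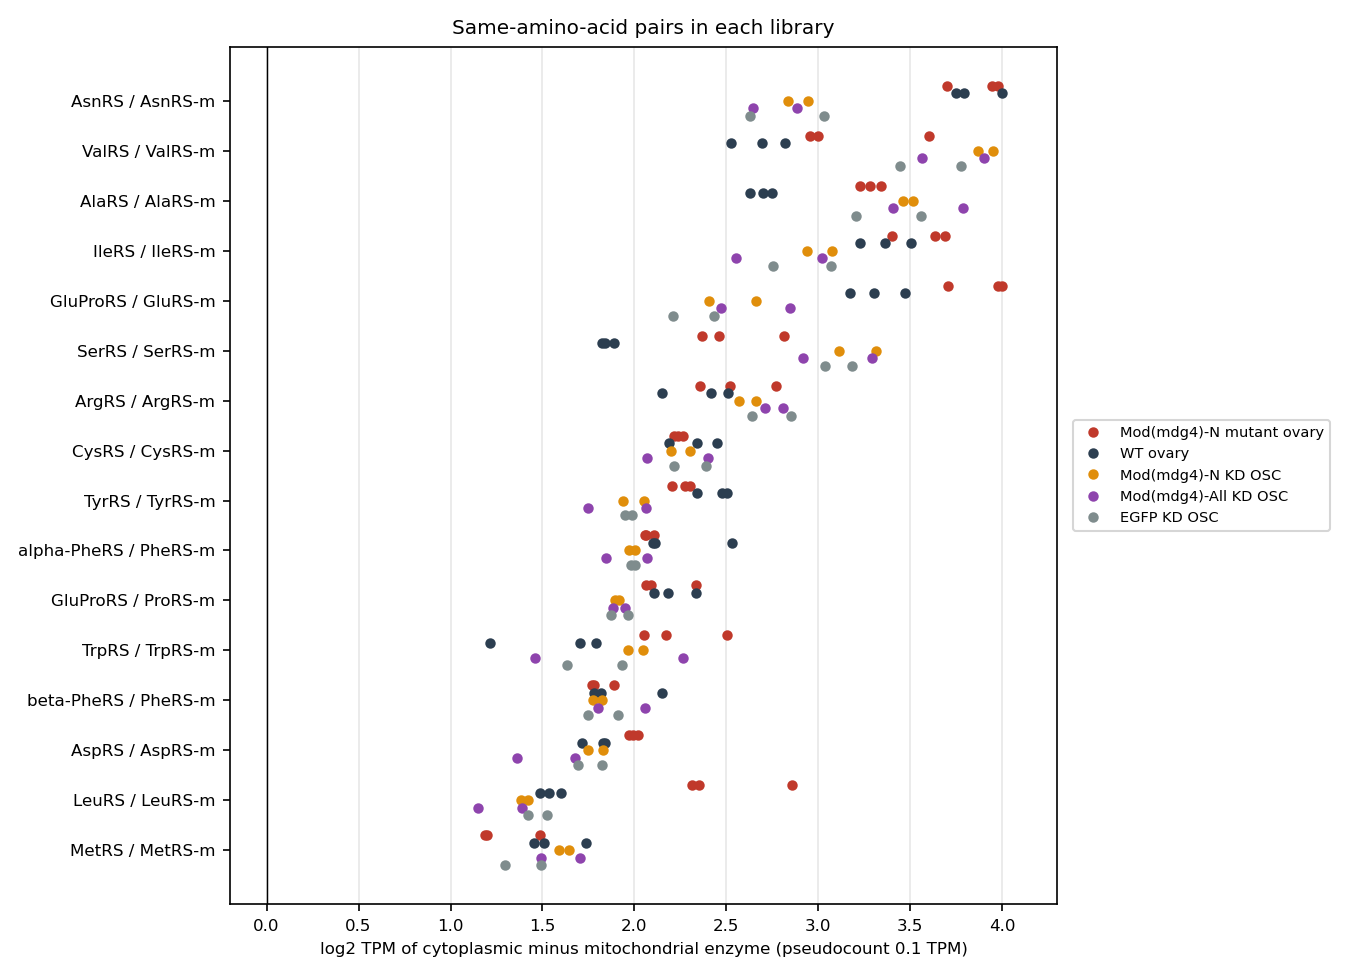
Log2 TPM of the cytoplasmic minus that of the mitochondrial gene for the same amino acid (pseudocount 0.1 TPM) in each of the 12 libraries; each point is a library, coloured by group, and pairs are ordered by their mean. All points lie above 0, and the 3 mutant ovaries of the leucine pair (between 2.31 and 2.86) lie apart from all other libraries (between 1.15 and 1.60).

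The comparison of mutant with WT ovaries asked which synthetase genes change when variant N is lost in the animal. Cytoplasmic synthetase genes were higher in the mutant: 10 of 20 rose, by between 0.27 and 0.64 on the log2 scale (1.21-fold to 1.56-fold), and none fell. Among the 15 mitochondrial genes, none rose and 1 (LeuRS-m) fell, whereas with the replicate number as a block PheRS-m also rose and TrpRS-m also fell. All 35 members passed the filter on low counts. The share of all 7934 tested genes called in either direction was 18.1%, with 11.7% called higher (929 genes) and 6.42% lower (509 genes). In its text the study, by its own test, counts fewer upregulated than downregulated genes in mutant ovaries. It lists cytoplasmic translation among the terms of the downregulated genes. This opposite balance was not resolved here, and the directions given follow the sample labels. The median log2 fold change was 0.26 for the cytoplasmic genes, 0.06 for the mitochondrial genes and -0.01 for all genes tested. A positive value was found for 19 of 20 cytoplasmic genes (all but MetRS, -0.09) and for 9 of 15 mitochondrial genes, against 48.6% of all genes tested. Cytoplasmic genes with every mutant library above every WT library numbered 17 of 20, beside 23.6% of all tested genes, and none had every mutant library below. For the mitochondrial genes these numbers were 6 of 15 above and 4 of 15 below, and 21.6% of all tested genes had every mutant library below.

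AlaRS (alanyl-tRNA synthetase, FBgn0027094; 2L, 8378262 to 8381764) showed the largest increase. It had 474, 455 and 466 normalized CPM (counts scaled to library size with TMM factors over the ovary libraries, not corrected for gene length) in mutant ovaries against 292, 307 and 294 normalized CPM in WT ovaries, which is 0.64 higher on the log2 scale, with an SE of 0.07 and an adjusted p of 0.00489. The gap between the groups was several times the spread within either. AsnRS (asparaginyl-tRNA synthetase, FBgn0086443; 2L, 19129469 to 19131954) had 346, 257 and 274 normalized CPM in mutant ovaries and 213, 200 and 200 normalized CPM in WT ovaries (log2 fold change 0.52, SE 0.12, adjusted p = 0.0340). Mutant replicate 1 was the high library here. SerRS (seryl-tRNA synthetase, FBgn0031497; 2L, 3035493 to 3037403) had 306, 259 and 246 normalized CPM in mutant ovaries and 190, 192 and 197 normalized CPM in WT ovaries (log2 fold change 0.49, SE 0.10, adjusted p = 0.0234).

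IleRS and LeuRS, whose products belong to the multisynthetase complex, rose to a like extent. IleRS (isoleucyl-tRNA synthetase, FBgn0027086; 3L, 22288665 to 22292810) had 531, 457 and 462 normalized CPM in mutant ovaries and 351, 369 and 325 normalized CPM in WT ovaries (log2 fold change 0.47, SE 0.09, adjusted p = 0.0217). LeuRS (leucyl-tRNA synthetase, FBgn0284253; 2L, 3510328 to 3514656) had 326, 277 and 294 normalized CPM in mutant ovaries and 213, 222 and 213 normalized CPM in WT ovaries (log2 fold change 0.47, SE 0.08, adjusted p = 0.0175). Neither gene's groups overlapped. The other 5 that rose were beta-PheRS and alpha-PheRS, the subunits of cytoplasmic phenylalanyl-tRNA synthetase (log2 fold changes 0.39 and 0.32), HisRS (0.31), GlnRS (0.29) and GluProRS (0.27), with adjusted p between 0.0236 and 0.0430. By structural class, 6 of 10 class II and 3 of 9 class I cytoplasmic genes rose, besides GluProRS, which holds both. By complex, 4 of 8 genes for multisynthetase complex enzymes and 6 of 12 for other cytoplasmic enzymes rose.

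LeuRS-m (mitochondrial leucyl-tRNA synthetase, FBgn0027085; 3L, 4825853 to 4829038) moved against its cytoplasmic counterpart. It had 34.8, 42.1 and 46.0 normalized CPM in mutant ovaries and 57.0, 56.9 and 58.5 normalized CPM in WT ovaries, and its log2 fold change was -0.49 with an SE of 0.11 and an adjusted p of 0.0317. The 3 WT values were close together and the mutant values were spread out, all of them below. Without the block, the other 14 mitochondrial genes did not pass the test, with log2 fold changes between -0.53 (TrpRS-m, adjusted p = 0.0530) and 0.48 (AsnRS-m, adjusted p = 0.116). PheRS-m (0.48, adjusted p = 0.0620) and TyrRS-m (0.35, adjusted p = 0.0772) were also near the threshold.

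**Figure D3:**
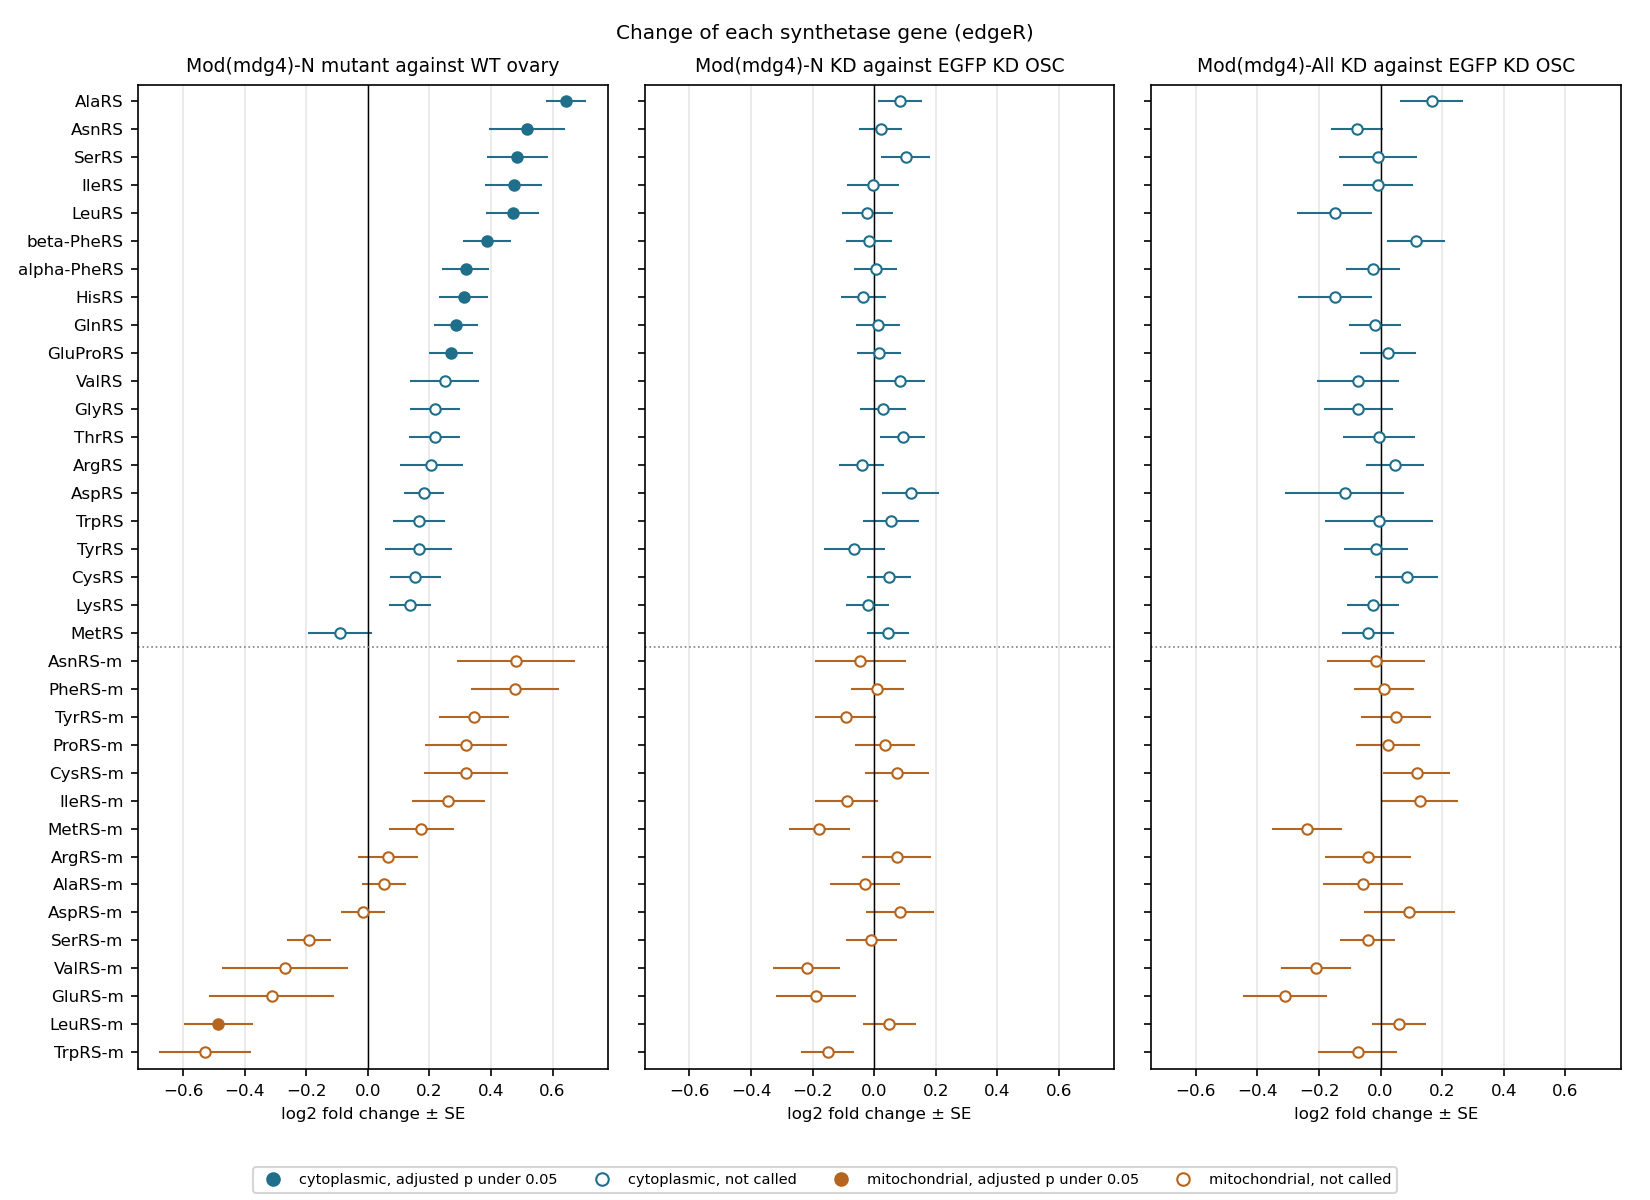
Log2 fold change of each of the 35 synthetase genes with its standard error (edgeR) in mutant against WT ovaries, Mod(mdg4)-N KD against EGFP KD OSC and Mod(mdg4)-All KD against EGFP KD OSC; filled points have an adjusted p under 0.05, and the dotted line parts cytoplasmic from mitochondrial genes. In ovary 10 cytoplasmic genes (log2 fold change 0.27 to 0.64) and LeuRS-m (-0.49) are filled, and in OSC no gene is.

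The number of calls in ovary moved with single libraries. With the replicate number as a block, 13 members were called, since PheRS-m (log2 fold change 0.49, adjusted p = 0.0376) was then higher and TrpRS-m (-0.53, adjusted p = 0.0163) lower in the mutant, while 2279 of all tested genes were called with the block, against 1438 without it. Leaving out mutant replicate 1, 2 or 3 gave 7, 1 and 9 called members of 35, beside 811, 173 and 1446 of all tested genes. Leaving out WT replicate 1, 2 or 3 gave 3, 1 and 2, beside 926, 177 and 816. Between 7759 and 7879 genes were tested in these refits. Without WT replicate 1 or 3, the called share of members lay below that of all genes. AlaRS was called in all 6 of these refits, LeuRS in 4, beta-PheRS in 3, AsnRS, IleRS, SerRS and LeuRS-m in 2, alpha-PheRS in 1, and GlnRS, GluProRS and HisRS in none. No called member changed sign in any of them, and the median log2 fold change stayed between 0.22 and 0.30 for cytoplasmic and between 0.05 and 0.08 for mitochondrial genes. The summed eggshell level given above moved with genotype and was lowest in WT replicate 1. Without that library the cytoplasmic median was 0.27 and the 3 called genes were AlaRS, LeuRS and beta-PheRS. The remaining WT sums (13835 and 16372 TPM) still lay below every mutant sum (24085 TPM or more). In that refit too, eggshell level and genotype therefore cannot be told apart. Besides Vm26Aa, an eggshell gene (log2 fold change 1.28, adjusted p = 0.0258), the germline markers bam (1.74, adjusted p = 0.00331), rhi (-2.01, adjusted p = 0.0102) and vas (-0.50, adjusted p = 0.0222) and the follicle cell marker zfh1 (-0.61, adjusted p = 0.0212) passed the test in ovary. Neither list moved as a whole: 3 of 6 germline and 2 of 4 follicle cell markers had a positive log2 fold change. Among the latter tj, which was not called, had 90.4 to 182 normalized CPM in mutant ovaries and 64.7 to 87.5 normalized CPM in WT ovaries. All 4 muscle sheath markers had a negative log2 fold change (-0.76 to -0.47, list median -0.55). None of these 4 was called, and the groups overlapped for each. The part of these cell type markers in the synthetase values was not tested.

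**Figure D4:**
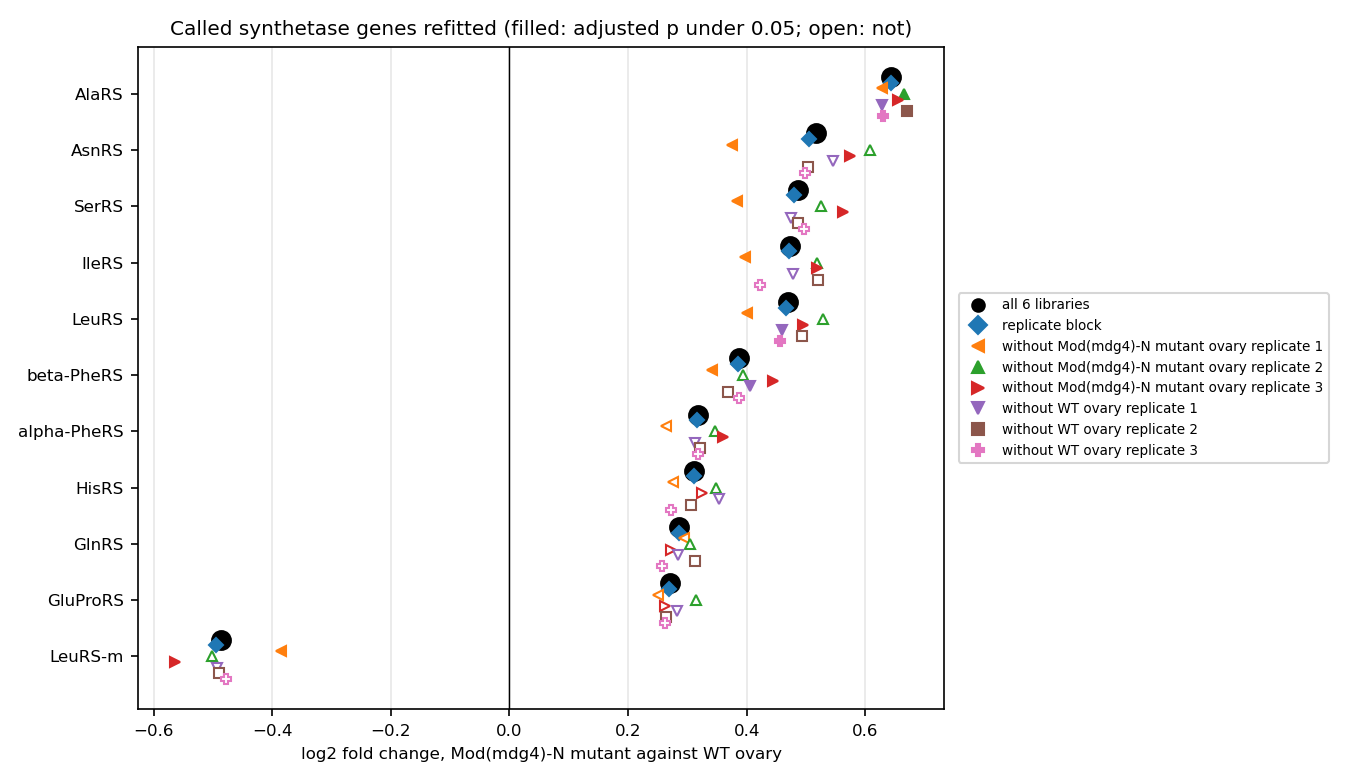
Log2 fold change, mutant against WT ovary, of the 11 synthetase genes called with all 6 libraries, refitted with the replicate block and with each library left out in turn (edgeR); filled symbols have an adjusted p under 0.05. AlaRS stays between 0.63 and 0.67 and filled throughout, whereas GlnRS, GluProRS and HisRS are open whenever a library is left out.

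AlaRS and IleRS, 2 of the largest increases, share a sequence close to the start site. LeuRS rose about as much as IleRS without it, and LeuRS-m fell. The promoters of these 4 genes are shown for that reason. Each is the reference sequence from 250 bases before to 50 bases after the annotated start of the gene (Release 6 of the genome, RefSeq annotation), written 5′ to 3′ on the gene's own strand, as chr2L:8381715-8382014 (minus strand) for AlaRS, chr3L:22288415-22288714 (plus strand) for IleRS, chr2L:3514607-3514906 (minus strand) for LeuRS and chr3L:4825603-4825902 (plus strand) for LeuRS-m. Capitals mark matches to the motifs searched. TATCGATA is the DNA replication-related element (DRE), a core promoter motif of many housekeeping genes in flies, and CACGTG is the E-box bound by Myc and other basic helix-loop-helix proteins.
AlaRS: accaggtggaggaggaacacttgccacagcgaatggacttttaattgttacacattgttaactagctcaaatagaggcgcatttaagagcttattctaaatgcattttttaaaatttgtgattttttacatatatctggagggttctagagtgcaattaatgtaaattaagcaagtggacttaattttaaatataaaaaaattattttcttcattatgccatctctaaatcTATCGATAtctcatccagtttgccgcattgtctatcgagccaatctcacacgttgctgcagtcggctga
IleRS: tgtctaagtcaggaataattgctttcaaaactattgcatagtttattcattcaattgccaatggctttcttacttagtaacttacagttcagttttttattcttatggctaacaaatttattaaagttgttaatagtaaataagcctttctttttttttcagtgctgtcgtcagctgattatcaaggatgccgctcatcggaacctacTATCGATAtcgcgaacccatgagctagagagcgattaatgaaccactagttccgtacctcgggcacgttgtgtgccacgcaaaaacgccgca
LeuRS: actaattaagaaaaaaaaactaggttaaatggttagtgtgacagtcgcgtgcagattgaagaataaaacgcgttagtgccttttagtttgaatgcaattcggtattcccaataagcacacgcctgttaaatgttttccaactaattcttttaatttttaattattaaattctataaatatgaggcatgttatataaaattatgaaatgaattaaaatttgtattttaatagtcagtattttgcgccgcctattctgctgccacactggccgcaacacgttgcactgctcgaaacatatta
LeuRS-m: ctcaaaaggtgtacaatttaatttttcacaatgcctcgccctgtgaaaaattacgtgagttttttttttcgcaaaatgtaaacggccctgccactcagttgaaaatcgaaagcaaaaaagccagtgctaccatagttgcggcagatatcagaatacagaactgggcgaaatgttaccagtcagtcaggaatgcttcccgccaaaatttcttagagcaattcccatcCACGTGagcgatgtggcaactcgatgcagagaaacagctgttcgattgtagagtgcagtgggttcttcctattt

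On either strand, the DRE (TATCGATA) was found in the window of 4 of 20 cytoplasmic genes (AlaRS, IleRS, ArgRS and TrpRS) and 1 of 15 mitochondrial genes (PheRS-m), against 9.37% of all 13925 promoters and 15.1% of those of genes with a mean over 1 TPM. It lay within 72 bases of the start in all 5 genes, 19 bases upstream in AlaRS and 42 in IleRS. Of its cytoplasmic holders, AlaRS and IleRS rose in mutant ovaries, whereas ArgRS (log2 fold change 0.21, adjusted p = 0.186) and TrpRS (0.17, adjusted p = 0.188) did not pass the test. Of the 10 synthetase genes called higher, 2 (20.0%) held the DRE, the same share as of the cytoplasmic genes. The E-box (CACGTG, 4.21% of all promoters and 4.61% of those over 1 TPM) was found in GlnRS and in LeuRS-m, 24 bases upstream of the start. The core of Motif 1 (GGTCACACT, 6.05% of all promoters and 10.2% of those over 1 TPM) occurred in 2 cytoplasmic and 3 mitochondrial genes, and a core of the ATF4-type response element (TGATGNAA, 4.08% of all promoters and 3.85% of those over 1 TPM) in 2 cytoplasmic genes, CysRS and beta-PheRS, and no mitochondrial gene. LeuRS, AsnRS and SerRS held none of these 4 strings in the window. The matches describe these 300 letters and show no binding.

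Genes that work beside the synthetases were counted in the same test of mutant against WT ovaries, in which 11.7% of all tested genes were called higher and 6.42% lower. The lists were the partners of the synthetases (7 genes matched of 8), the amino acid deprivation and ATF4 response (9 genes) and mitochondrial gene expression (9 genes). Of the partners, 3 of 7 rose and none fell, with a list median of 0.27. AIMP3, a non-catalytic component of the multisynthetase complex, had 77.8, 72.8 and 69.2 normalized CPM in mutant ovaries and 40.9, 40.8 and 44.8 normalized CPM in WT ovaries (log2 fold change 0.80, SE 0.08, adjusted p = 0.00474). AIMP1, another such component, had 89.4, 87.1 and 97.3 normalized CPM in mutant ovaries against 63.8, 74.8 and 59.4 normalized CPM in WT ovaries (0.47, SE 0.11, adjusted p = 0.0300). GatA, a subunit of the amidotransferase that forms glutaminyl-tRNA in mitochondria, where no GlnRS-m is listed, had 42.6, 40.0 and 40.7 normalized CPM in mutant ovaries against 27.4, 21.7 and 26.5 normalized CPM in WT ovaries (0.70, SE 0.11, adjusted p = 0.0132). The groups did not overlap for any of the 3.

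The response list was divided, 2 of 9 genes being higher and 2 lower, with a median of -0.12, beside 11.7% of all tested genes higher and 6.42% lower. Nmdmc, an enzyme of mitochondrial folate metabolism, rose by 0.97 (adjusted p = 0.0171) and crc, the fly ATF4 transcription factor, by 0.60 (adjusted p = 0.0355) on the log2 scale. The kinases Gcn2, which senses uncharged tRNA, and PEK, which senses stress of the endoplasmic reticulum, fell by 0.56 (adjusted p = 0.0423) and by 0.55 (adjusted p = 0.0241). Of the mitochondrial expression list 3 of 9 rose and none fell, with a median of 0.27. These were the elongation factors mEFTu1 (0.88, adjusted p = 0.00981) and mEFTs (0.31, adjusted p = 0.0361) and the initiation factor mIF2 (0.60, adjusted p = 0.0277). With a library left out, AIMP3 was called in all 6 refits, mEFTu1 in 5, GatA and Nmdmc in 4 and the other 6 genes in 3 or fewer.

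In OSC, depletion of Mod(mdg4) left no synthetase gene past the test. With Mod(mdg4)-N KD, 0 of 35 members were called by edgeR or by any other tool run, and 0 had an unadjusted p under 0.05, while 0.0247% of all 8106 tested genes (2 genes) were called and 228 had an unadjusted p under 0.05. With Mod(mdg4)-All KD, 0 of 35 members were called by edgeR or any other tool run, and 0 had an unadjusted p under 0.05, beside 1.1% of all 8126 tested genes called and 1048 with an unadjusted p under 0.05. Between Mod(mdg4)-All KD and Mod(mdg4)-N KD, 0 of 35 were called and 0 had an unadjusted p under 0.05, beside 1.15% of all 8118 tested genes called. Both knockdowns share the EGFP KD libraries, so that their values are not independent.

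The fitted changes in OSC were small beside those in ovary. With Mod(mdg4)-N KD the log2 fold changes lay between -0.22 (ValRS-m, SE 0.11) and 0.12 (AspRS, SE 0.09), with medians of 0.02 for the cytoplasmic and -0.03 for the mitochondrial genes. AlaRS had 524 and 551 normalized CPM (TMM over the OSC libraries) in Mod(mdg4)-N KD, 603 and 529 normalized CPM in Mod(mdg4)-All KD and 519 and 495 normalized CPM in EGFP KD. With Mod(mdg4)-All KD the range was between -0.31 (GluRS-m, SE 0.14) and 0.17 (AlaRS, SE 0.10), with medians of -0.02 and -0.01. LeuRS-m, which fell in mutant ovaries, had 63.3 and 69.9 normalized CPM in Mod(mdg4)-N KD, 67.4 and 66.0 normalized CPM in Mod(mdg4)-All KD and 65.4 and 63.1 normalized CPM in EGFP KD. Without Mod(mdg4)-All KD replicate 1, when that group is a lone library assumed to vary as the 2 of Mod(mdg4)-N KD do, 568 of all tested genes were called between Mod(mdg4)-All KD and Mod(mdg4)-N KD, against 93 with all libraries. Among them AspRS (-0.56, adjusted p = 0.00282), ValRS (-0.33, adjusted p = 0.0414) and TrpRS (-0.34, adjusted p = 0.0415) were lower in Mod(mdg4)-All KD. None of the partner, response and mitochondrial expression genes was called in either knockdown. Among the cell type markers, the eggshell gene Cp15 fell in Mod(mdg4)-All KD (-3.22, adjusted p = 0.0395), where the 5 eggshell genes summed to at most 15.1 TPM in any OSC library.

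Whether loss of variant N acted differently in ovary and OSC was tested as the difference itself, (mutant minus WT ovary) minus (Mod(mdg4)-N KD minus EGFP KD), over 10 libraries. AlaRS was the 1 of 35 members called (0.55, SE 0.10, adjusted p = 0.0253), beside 3.31% of all 9011 tested genes. Its log2 fold change was 0.64 in ovary and 0.08 in OSC. The call was lost without mutant replicate 2, without WT replicate 2 and without any of the 4 OSC libraries, while the value stayed between 0.52 and 0.60 and the number of all tested genes called was between 19 and 134 in these refits, against 298. The other 34 members spread between -0.55 (LeuRS-m, adjusted p = 0.118) and 0.52 (AsnRS-m, adjusted p = 0.273). From the 3 lists, AIMP3 (0.77, adjusted p = 0.0196), GatA (0.87, adjusted p = 0.0277) and mEFTu1 (0.76, adjusted p = 0.0427) differed as well. The source of the RNA (whole ovary or cell line) and the means of the loss (mutant allele or siRNA) cannot be told apart here.

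WT ovary was then set against EGFP KD OSC to place the members in tissue and cell line. Synthetase transcripts were lower in the ovary: 19 of 35 members fell (12 cytoplasmic and 7 mitochondrial) and 1, SerRS-m, rose. Of all 8685 tested genes 68.8% were called, 35.5% higher and 33.3% lower. Without WT replicate 2 the number of called members was 13, beside 5366 of all 8451 tested genes. The median log2 fold change was -0.29 for cytoplasmic and -0.28 for mitochondrial genes, beside 0.02 for all genes tested, so that the classes did not part here as they did between mutant and WT ovaries. Transcripts for enzymes of the multisynthetase complex fell in 2 of 8 cases and those for other cytoplasmic enzymes in 10 of 12. On the scale of log2(TPM + 1) the medians of both classes were -0.14 and -0.13, and the median of all genes tested was 0.14. Tissue, transfection and library preparation cannot be told apart in this comparison.

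The largest falls belonged to both classes. Fold changes are from the counts, and levels are given as TPM. GluRS-m (mitochondrial glutamyl-tRNA synthetase, FBgn0036629; 3L, 16415292 to 16417177) had 7.50, 6.63 and 8.53 TPM in WT ovaries and 15.0 and 17.1 TPM in EGFP KD OSC (log2 fold change -1.22, SE 0.17, adjusted p = 0.00183), and ValRS (valyl-tRNA synthetase, FBgn0027079; 2R, 13198850 to 13202709) had 45.8, 48.7 and 59.1 TPM in WT ovaries and 110 and 98.3 TPM in EGFP KD OSC (-1.16, SE 0.11, adjusted p = 0.000394). AsnRS-m (mitochondrial asparaginyl-tRNA synthetase, FBgn0034177; 2R, 17001994 to 17003599) had 9.98, 8.16 and 9.73 TPM in WT ovaries and 14.7 and 19.1 TPM in EGFP KD OSC (-0.99, SE 0.20, adjusted p = 0.00686). In all of these the tissue and the line were separated. GlyRS (glycyl-tRNA synthetase, FBgn0027088; 3L, 15095142 to 15097686) had 98.7, 99.7 and 92.3 TPM in WT ovaries and 178 and 167 TPM in EGFP KD OSC (-0.97, SE 0.09, adjusted p = 0.000380). For ThrRS, whose levels are given above, the log2 fold change was -0.89 (SE 0.09, adjusted p = 0.000567). SerRS-m (mitochondrial seryl-tRNA synthetase, FBgn0021750; 3R, 15340667 to 15343218) had 38.4, 38.9 and 42.8 TPM in WT ovaries and 26.2 and 27.3 TPM in EGFP KD OSC (0.30, SE 0.08, adjusted p = 0.0220), whereas its cytoplasmic partner SerRS fell by 0.81 (adjusted p = 0.000284). The call of SerRS-m was lost without either EGFP KD library.

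**Figure D5:**
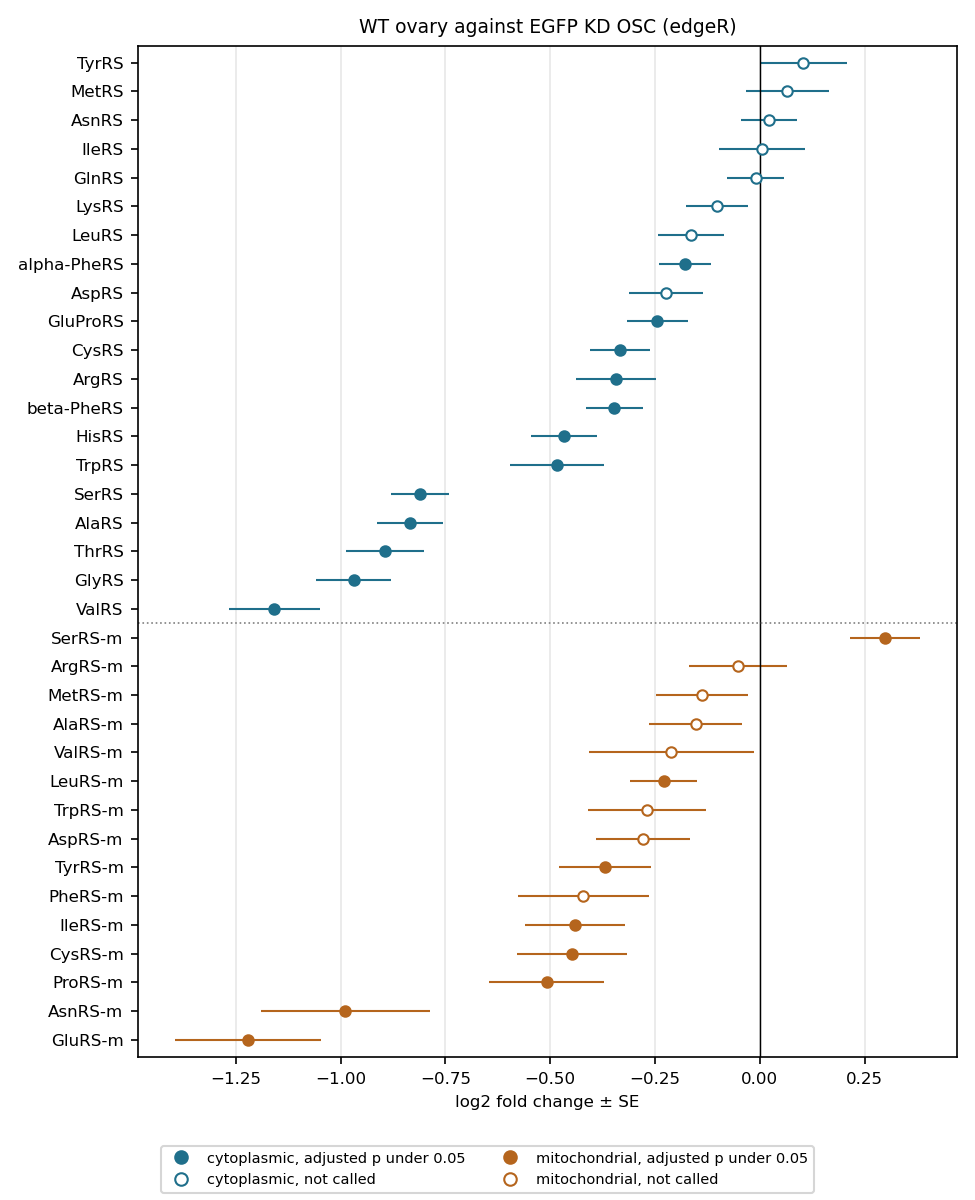
Log2 fold change of each of the 35 synthetase genes with its standard error in WT ovary against EGFP KD OSC (edgeR); filled points have an adjusted p under 0.05, and the dotted line parts cytoplasmic from mitochondrial genes. GluRS-m (-1.22) and ValRS (-1.16) lie lowest, and SerRS-m (0.30) is the 1 filled point above 0.

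The list counts for WT ovary against EGFP KD OSC stand beside 35.5% of all tested genes called higher and 33.3% called lower. Of the partners, 4 of 7 were lower in WT ovary than in EGFP KD OSC and none was higher. These were Slimp, a mitochondrial paralogue of seryl-tRNA synthetase (-0.68, adjusted p = 0.0113), and the amidotransferase subunits GatA (-0.67, adjusted p = 0.00797), GatB (-0.38, adjusted p = 0.0274) and GatC (-0.87, adjusted p = 0.00728). In the response list aay, the phosphatase of serine synthesis (2.84, adjusted p = 0.00249), and Gcn2 (0.56, adjusted p = 0.0369) were higher, and Nmdmc (-1.88, adjusted p = 0.000607) and crc (-0.91, adjusted p = 0.00107) were lower. The mitochondrial expression list had 3 genes higher and 4 lower of 9.

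By position the members are scattered, with 8 on 2R, 6 on 2L, 10 on 3L, 7 on 3R and 4 on X. The 2 nearest, GluRS-m and TyrRS, lie on the same strand of 3L with 171 bases between them. Exons overlap those of another gene on the same strand for AspRS and HisRS, and on the opposite strand for 5 cytoplasmic genes and 10 mitochondrial genes, SerRS, AsnRS-m, GluRS-m, AspRS-m and SerRS-m among them. The library kit keeps strand, but the parameters that the study lists for counting name no strand option, so that reads of such pairs may have been given to either gene. AlaRS, AsnRS, IleRS, LeuRS and LeuRS-m overlap no annotated exon of another gene.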

How the data were processed

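RSEM, with STAR as the aligner, was run by the authors on paired-end poly(A)+ reads against dm6. The deposited tables, 1 for each library, give expected counts, which are not normalized, and the TPM that RSEM scales for length and depth. Versions and the annotation release are not given in the sources used here. The ChIP-seq and Micro-C samples were not analysed here.

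Expected counts were rounded. Genes with CPM above 1 in at least 3 libraries (ovary) or 2 (other comparisons) were tested with edgeR 4.0.16 in R 4.3.3 (TMM, quasi-likelihood F test, legacy algorithm), with Benjamini-Hochberg adjustment over all genes tested and a threshold of 0.05. The standard error was the size of the log2 fold change divided by the square root of F. Only the groups compared entered each fit. The code of the test was run on simulated counts with known changes and a single spread set for all genes and groups. That run checks the code and says nothing of the spread of these libraries. Symbols and positions came from Ensembl 115 (BDGP 6.54). Fits were repeated with DESeq2 1.42.0, with voom in limma 3.58.1, with the newer edgeR algorithm, with RLE factors, with filterByExpr or no filter, with the replicate number as a block, with the OSC groups fitted jointly, on TPM, and with each library left out. In ovary, deviations of same-numbered libraries from their group means correlated at 0.267, 0.296 and 0.29 across genes. Labels give no reason for a pairing. The main fits therefore held no block, and calls, standard errors and adjusted p are from them unless the block is named. The calls that changed with the block are given beside them. Libraries of a group differed by a chi-square of 6.91 to 87.4 per degree of freedom, so none was a copy.

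Values in every library were given for all called members where 10 or fewer were called and otherwise for the 5 largest changes in each direction, for the highest and lowest member of each class, and for the 3 widest and narrowest pairs. From other lists called genes were named. The members, lists and rules were chosen with earlier results of these data known. Motifs and printed promoters were chosen after the fold changes were known.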

Additional observations from a re-analysis of the deposited data

Results flagged for a closer look

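The effect of Mod(mdg4)-N loss differed between ovary and OSC by the test of the difference itself (edgeR's quasi-likelihood test with Benjamini-Hochberg adjustment over 9011 genes) for 1 of 35 synthetase genes and 3 genes of the lists beside them. The share called was 2.86% of the synthetase genes, beside 3.31% of all genes tested. AlaRS differed by 0.55 on the log2 scale (adjusted p = 0.0253), AIMP3 by 0.77 (adjusted p = 0.0196), GatA by 0.87 (adjusted p = 0.0277) and mEFTu1 by 0.76 (adjusted p = 0.0427). Each was higher in all 3 mutant ovaries than in all 3 WT ovaries, and none passed the test in Mod(mdg4)-N KD OSC. Leaving out any of the 4 OSC libraries, or mutant replicate 2, ended all 4 calls.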

How the results depend on the processing

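Counts of called members in ovary moved with the test. DESeq2 called 15 (12 cytoplasmic and 3 mitochondrial), with 2365 of all tested genes against 1438 by edgeR. Without a filter 7 members (6 cytoplasmic) were called, beside 1045 of all 12967 tested genes. With each library left out, ovary calls ranged from 1 to 9 (cytoplasmic 1 to 7, mitochondrial 0 to 2), beside 173 to 1446 of all tested genes. Ovary medians ranged from 0.22 to 0.30 for cytoplasmic and 0.05 to 0.08 for mitochondrial genes. In OSC, leaving out a library gave 0 calls for each knockdown against EGFP KD, and 0 to 3 between Mod(mdg4)-All KD and Mod(mdg4)-N KD. Medians ranged from 0.01 to 0.04 (cytoplasmic) and -0.15 to -0.0067 (mitochondrial) for Mod(mdg4)-N KD, and from -0.10 to 0.04 and -0.07 to 0.03 for Mod(mdg4)-All KD. For WT ovary against EGFP KD OSC, calls ranged from 13 (without WT replicate 2) to 19 with a WT library left out. Between 5366 and 6265 of all tested genes were then called. With all libraries 20 members were called, beside 5973 of all tested genes, and 23 with DESeq2, beside 6335. With a library left out the medians ranged from -0.39 to -0.25 and -0.42 to -0.25, with -0.14 and -0.13 on log2(TPM + 1). The difference between ovary and OSC gave 6 calls with DESeq2, beside 867 of all 9011 tested genes, and 0 without a filter, beside 223 of 13969. With an ovary library left out it gave 0 to 1, beside 131 to 432 of all tested genes. Named genes called with all libraries kept their direction under the alternatives run. AspRS and TrpRS, called between the knockdowns only without Mod(mdg4)-All KD replicate 1, each had the opposite sign in another refit. The cause was not tested.

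With the replicate block, 3 mitochondrial genes were called in ovary, and in OSC the block changed no member's call. In WT ovary against EGFP KD OSC, where numbers did not pair (correlations -0.0264 and 0.0221), it gave 17 calls. In OSC, same-numbered libraries correlated at 0.217 (Mod(mdg4)-N KD), 0.148 (Mod(mdg4)-All KD) and -0.171 (Mod(mdg4)-All KD with Mod(mdg4)-N KD). For the last, a crossed pairing, chosen after seeing the data, called 257 genes, against 28 with the block as numbered and 93 without it, and 0 members each time. With 2 or 3 libraries a group, small changes of low mitochondrial transcripts could not be resolved.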
